A study of Danio rerio with 12 samples.

Results

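Desmosomes are spot-like junctions that rivet neighbouring epithelial cells together and anchor their keratin filaments. Desmosomal cadherins such as desmocollin span the gap between cells, armadillo proteins (plakophilins and plakoglobin) bind their tails, and plakins such as desmoplakin link this plaque to the keratin cytoskeleton. E-cadherin does the corresponding work in adherens junctions, which connect to actin. In mammals both kinds of junction hold the epidermis together, and in zebrafish the skin of the embryo is a thin epidermis with an outer periderm over basal keratinocytes. The genes described here were taken by symbol from a list that was chosen with earlier results of these data known. The entries were pkp1, pkp3a, dspa, dspb, jupa, cdh1, dsc2l, perp, evpla and ppl, 10 in all, and they led to 11 of the 32105 genes in the count table. Entries matched by their own symbol, ignoring case, numbered 7. The identifier table gives the desmoplakin copies only as DSP and the plakoglobin copies only as JUP, each for a pair of identifiers, so all 4 of those rows were taken and are named here by identifier. Of the plakoglobin copies only jupa was an entry, so a JUP row counted among the 11 genes may be jupb. Which identifier is which copy is not given.

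Whole zebrafish (Danio rerio) of a wild-type strain, aged 2 days, gave the RNA that was sequenced. The miR-101a group had received 2 ng of synthetic miR-101a, the miR-29a group 2 ng of synthetic miR-29a, and the control group carried no perturbation, with 4 libraries in each. MicroRNAs are short RNAs that, bound to Argonaute proteins, pair with sites in messenger RNAs and lower the level or the translation of these. No mock-treated group is named in the labels, and neither the route of the microRNA nor the clutch of each replicate is given. The p-values thus rest on the spread among these libraries, which may be technical. All 3 groups shared the wild-type strain and the age. In whole embryos, a lower or higher level of a transcript cannot be told apart from a smaller or larger share of the cells that make it.

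Libraries held 19804199 to 30383374 counts. miR-29a replicate 3 stood apart from the rest. Its scaling factor by the trimmed mean of M values (TMM) was 0.729, against 0.963 to 1.11 in the other 11 libraries. The spread between replicates, as a biological coefficient of variation over all genes, was 21.7% with this library and 7.72% without it. Values without this library are therefore given beside those with it where a call among the 11 genes moved with it, and for some other values. Levels are CPM (counts scaled to a common library size) after TMM scaling. Differences are log2 fold changes with their standard errors (SE), from a quasi-likelihood model of all 12 libraries in edgeR. A gene was called when its Benjamini-Hochberg adjusted p, over all 20872 genes tested, was under 0.05.

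All 11 genes were measured above the filter on low counts, and epidermis was represented in the whole-embryo RNA. Of 15 markers of epidermis, each was detected in every library, and the scarcest of them, the transcription factor gene grhl3, never fell below 8.95 CPM. Levels of different genes were compared per length, as RPKM recomputed from the counts. In control embryos the plakoglobin copy JUP (ENSDARG00000070787) stood at the top with 62.1 ± 1.2 RPKM (SD, n = 4). Periplakin, PPL, had 50.8 ± 3.3 RPKM and PERP 45.0 ± 2.3 RPKM, and the control libraries of these 2 genes overlapped. The plakophilin gene pkp3a followed at 23.5 ± 1.6 RPKM. Next came cdh1 at 17.6 ± 1.1 RPKM and the desmoplakin copy DSP (ENSDARG00000022309) at 16.4 ± 0.5 RPKM, again with overlapping libraries. Envoplakin, evpla, had 13.4 ± 1.0 RPKM and the other desmoplakin copy, DSP (ENSDARG00000076673), 12.3 ± 0.9 RPKM, and these overlapped too. dsc2l had 8.83 ± 0.52 RPKM and PKP1 7.52 ± 0.13 RPKM, without overlap. The second plakoglobin copy, JUP (ENSDARG00000059067), was near the bottom of the scale at 1.0 ± 0.1 RPKM. It had 8 to 102 counts per library, so its values are much less precise than those of the other 10 genes.

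The junctional cadherins were higher in both microRNA groups. dsc2l encodes a desmocollin, a cadherin of the desmosome. In CPM it read 55.1, 54.4, 55.3 and 55.3 in the miR-101a libraries, 109, 92.8, 78.6 and 114 in the miR-29a libraries, and 46.6, 44.3, 41.1 and 43.2 in the control libraries. The 3 groups did not overlap, with miR-29a on top and control lowest. The log2 fold change of dsc2l with miR-29a was 1.17 ± 0.11 (SE, with 4 libraries a group; adjusted p = 1.35e-05, fold 2.26). Leaving out miR-29a replicate 3 put it at 1.27 ± 0.06. With miR-101a the log2 fold change of dsc2l was 0.33 ± 0.11 (adjusted p = 0.0479, fold 1.26), a call at the edge of the threshold. That call was lost without any 1 of the miR-101a or control libraries, and without miR-29a replicate 1 or 2 (adjusted p up to 0.13). Without miR-29a replicate 3 it was 0.31 ± 0.06 (adjusted p = 3.51e-04). RLE scaling, DESeq2, testing with no filter and limma on RPKM did not call it either.

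cdh1 encodes E-cadherin, the cadherin of epithelial adherens junctions. It read 139, 149, 138 and 132 CPM in miR-101a libraries, 184, 171, 179 and 193 CPM in miR-29a libraries, and 78.4, 85.0, 80.5 and 89.3 CPM in control libraries. Again no library of a group reached into the range of another. The rise with miR-29a was 1.13 ± 0.07 on the log2 scale (adjusted p = 1.3e-06, fold 2.18). With miR-101a it was 0.75 ± 0.07 (adjusted p = 4.01e-05, fold 1.68). These 2 values moved to no more than 1.27 and 0.82 under the alternatives tried, and every alternative called them.

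**Figure D1:**
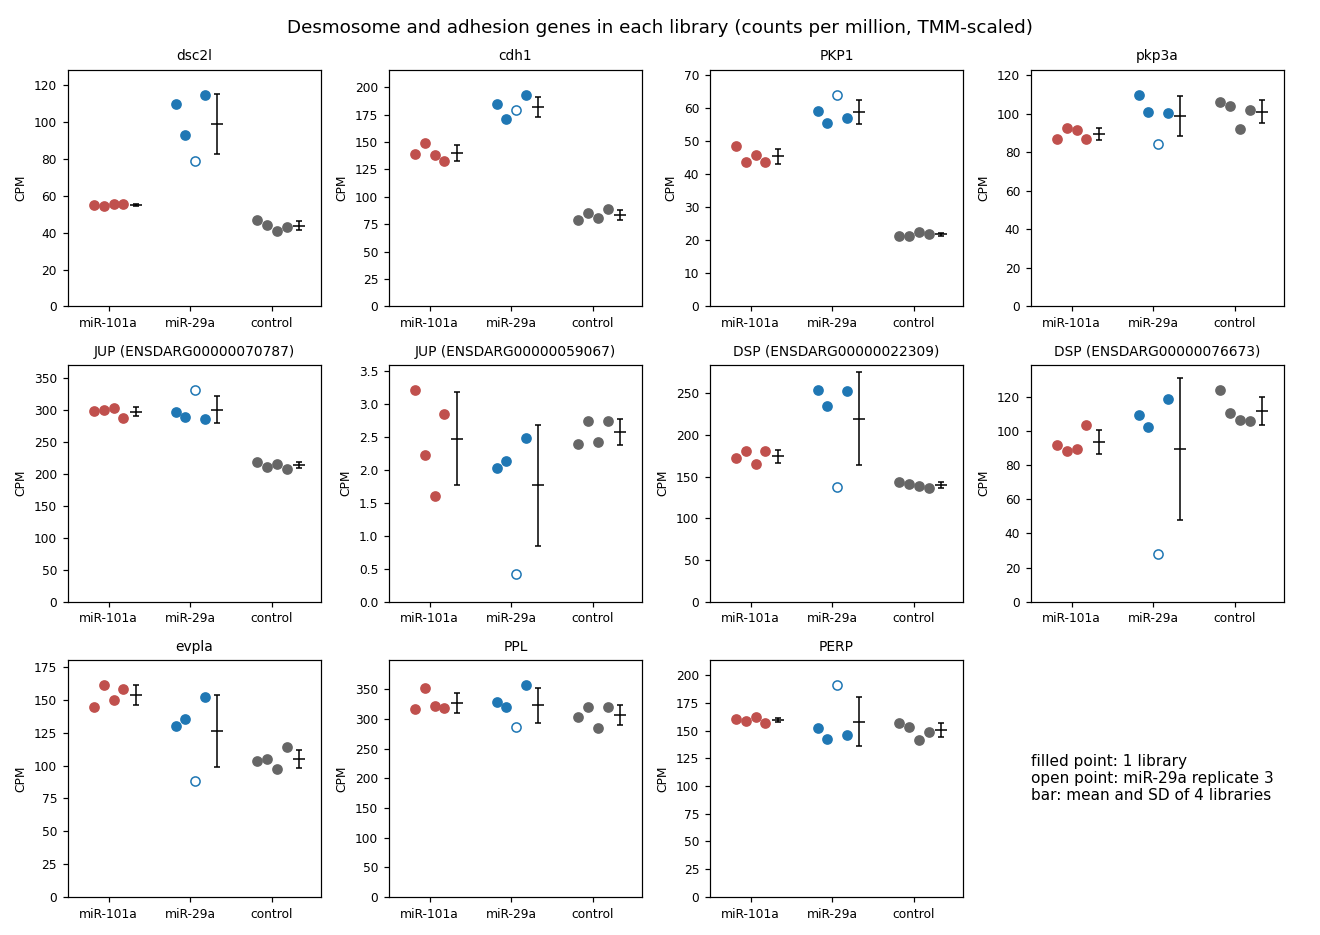
Each panel shows 1 gene, with the level in CPM after TMM scaling on the vertical axis (starting at 0) and the miR-101a, miR-29a and control groups along the horizontal axis. Points are libraries, the open point is miR-29a replicate 3, and the bar gives the mean and SD of 4 libraries. PKP1, cdh1, dsc2l and JUP (ENSDARG00000070787) sit higher in all libraries of both microRNA groups than in any control library, while the open point lies far below the rest of its group in both DSP copies.

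Of the armadillo proteins of the plaque, PKP1 changed the most. Plakophilin 1 stabilises desmosomes in mammalian epidermis. PKP1 read 48.5, 43.8, 45.9 and 43.8 CPM in miR-101a libraries, 59.1, 55.7, 64.0 and 57.1 CPM in miR-29a libraries, and 21.4, 21.3, 22.5 and 21.9 CPM in control libraries. The groups were fully separated, and miR-29a replicate 3 was the highest of its group in this gene rather than the lowest. PKP1 rose by 1.44 ± 0.07 on the log2 scale with miR-29a (adjusted p = 2.27e-07, fold 2.7). With miR-101a it rose by 1.06 ± 0.07 (adjusted p = 3.47e-06, fold 2.09). A row with the symbol pkp1a, looked up after the values were seen, averaged 1.4 CPM in miR-101a embryos, 1.3 CPM in miR-29a embryos and 1.2 CPM in control embryos.

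The related plakophilin gene pkp3a did not follow PKP1. It read 87.1, 92.7, 91.4 and 86.6 CPM in miR-101a libraries, 109.7, 101, 84.5 and 100.3 CPM in miR-29a libraries, and 106, 104, 92.3 and 102 CPM in control libraries. All 3 groups overlapped. With miR-101a the difference was -0.18 ± 0.08 (adjusted p = 0.185), and without miR-29a replicate 3 it was -0.20 ± 0.05 and was called (adjusted p = 0.0042). With miR-29a it was -0.03 ± 0.08 (adjusted p = 0.813), or 0.03 ± 0.05 without replicate 3 (adjusted p = 0.64).

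Plakoglobin, also called gamma-catenin, binds the tails of both desmosomal and classical cadherins. The abundant copy, JUP (ENSDARG00000070787), read 298, 299.8, 303 and 287 CPM in miR-101a libraries, 296, 289, 330.4 and 285 CPM in miR-29a libraries, and 218, 211, 216 and 207 CPM in control libraries. The microRNA groups overlapped each other and lay wholly above control. The rise was 0.49 ± 0.07 on the log2 scale with miR-29a (adjusted p = 3.94e-04, fold 1.41). With miR-101a it was 0.48 ± 0.07 (adjusted p = 9.09e-04, fold 1.39), and all alternatives called both. The scarce copy, JUP (ENSDARG00000059067), read 3.21, 2.23, 1.61 and 2.85 CPM in miR-101a libraries, 2.02, 2.14, 0.414 and 2.48 CPM in miR-29a libraries, and 2.38, 2.75, 2.42 and 2.73 CPM in control libraries. Its log2 fold change was -0.05 ± 0.37 with miR-101a (adjusted p = 0.95) and -0.52 ± 0.38 with miR-29a (adjusted p = 0.344). Without miR-29a replicate 3, where it had 8 counts, the value with miR-29a was -0.21 ± 0.20, and no alternative called it in any comparison. How the authors' counting treated reads that fit both copies is not given in the sources used here, so the split between copies is uncertain for JUP and for DSP.

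The plakins differed among themselves. Desmoplakin is the main link between the desmosomal plaque and keratin filaments. DSP (ENSDARG00000022309) read 172, 181, 165 and 181 CPM in miR-101a libraries, 254, 235, 138 and 253 CPM in miR-29a libraries, and 144, 142, 139 and 136 CPM in control libraries. The miR-101a group and 3 of the 4 miR-29a libraries lay above control, while miR-29a replicate 3 lay within the control range. With miR-29a this copy rose by 0.65 ± 0.16 on the log2 scale (adjusted p = 0.0089, fold 1.57), and by 0.81 ± 0.05 without replicate 3 (adjusted p = 2.81e-10). The call was lost in a fit of the 8 libraries compared (adjusted p = 0.0517) and in limma on RPKM values (0.104 to 0.11). With miR-101a the difference of 0.32 ± 0.16 was not called (adjusted p = 0.202), and without miR-29a replicate 3 it was 0.30 ± 0.05 and was called (adjusted p = 3.6e-05).

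The other desmoplakin copy, DSP (ENSDARG00000076673), read 92.1, 88.1, 89.6 and 104 CPM in miR-101a libraries, 109, 103, 27.7 and 119 CPM in miR-29a libraries, and 124, 111, 107 and 106 CPM in control libraries. All miR-101a libraries lay below the lowest control library, at 104 CPM or less against 106 CPM or more, and miR-29a replicate 3 was far below every other library. The difference with miR-101a was -0.26 ± 0.32 (adjusted p = 0.666), and -0.28 ± 0.06 without miR-29a replicate 3 (adjusted p = 0.00134). With miR-29a it was -0.32 ± 0.32 (adjusted p = 0.507), and -0.02 ± 0.07 without replicate 3 (adjusted p = 0.791). The estimates for the 2 copies thus had opposite signs in both comparisons with control. With miR-101a both copies were called in the fits that left that library out, and neither in the main fit of 12 libraries. The correction for gene length described below, which kept that library, called ENSDARG00000022309 with miR-101a (adjusted p = 0.0136). With miR-29a the value of ENSDARG00000076673 was no larger than its SE, with or without that library, so its sign there is not resolved.

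Envoplakin and periplakin are partner plakins that in mammals form the first scaffold of the cornified envelope beneath the membrane. evpla read 145, 161, 150.1 and 158 CPM in miR-101a libraries, 130.2, 135, 87.8 and 152 CPM in miR-29a libraries, and 104, 105, 97.7 and 114 CPM in control libraries. The miR-101a libraries and 3 of the 4 miR-29a libraries lay above all controls, and miR-29a replicate 3 lay below them. The rise with miR-101a was 0.55 ± 0.14 on the log2 scale (adjusted p = 0.0157, fold 1.46), a call lost without control replicate 3 (adjusted p = 0.0518) and in limma on RPKM. With miR-29a the value was 0.27 ± 0.14 (adjusted p = 0.173), and without replicate 3 it was 0.40 ± 0.06 and was called (adjusted p = 2.35e-05). The value with miR-101a was above that with miR-29a, but their difference was not called (0.28 ± 0.14, adjusted p = 0.19), and it was 0.13 ± 0.06 without replicate 3 (adjusted p = 0.108).

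PPL read 316, 353, 322 and 319 CPM in miR-101a libraries, 329, 319.5, 286 and 357 CPM in miR-29a libraries, and 303, 321, 284 and 319.6 CPM in control libraries. The groups overlapped throughout. Its log2 fold change was 0.09 ± 0.09 with miR-101a (adjusted p = 0.563) and 0.07 ± 0.09 with miR-29a (adjusted p = 0.592, and 0.12 ± 0.06 with adjusted p = 0.0793 without replicate 3). PERP, a small membrane protein that desmosomes of mouse epidermis need, read 160.2, 159, 162 and 157 CPM in miR-101a libraries, 152, 143, 191 and 146 CPM in miR-29a libraries, and 157, 153, 142 and 149 CPM in control libraries. The miR-101a libraries lay just above the highest control library, and miR-29a replicate 3 was the highest of all. Its log2 fold change was 0.09 ± 0.09 with miR-101a (adjusted p = 0.604) and 0.07 ± 0.09 with miR-29a (adjusted p = 0.604). Without replicate 3 the value of PERP with miR-29a was -0.03 ± 0.05 (adjusted p = 0.573). No alternative called PPL or PERP in any comparison.

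**Figure D2:**
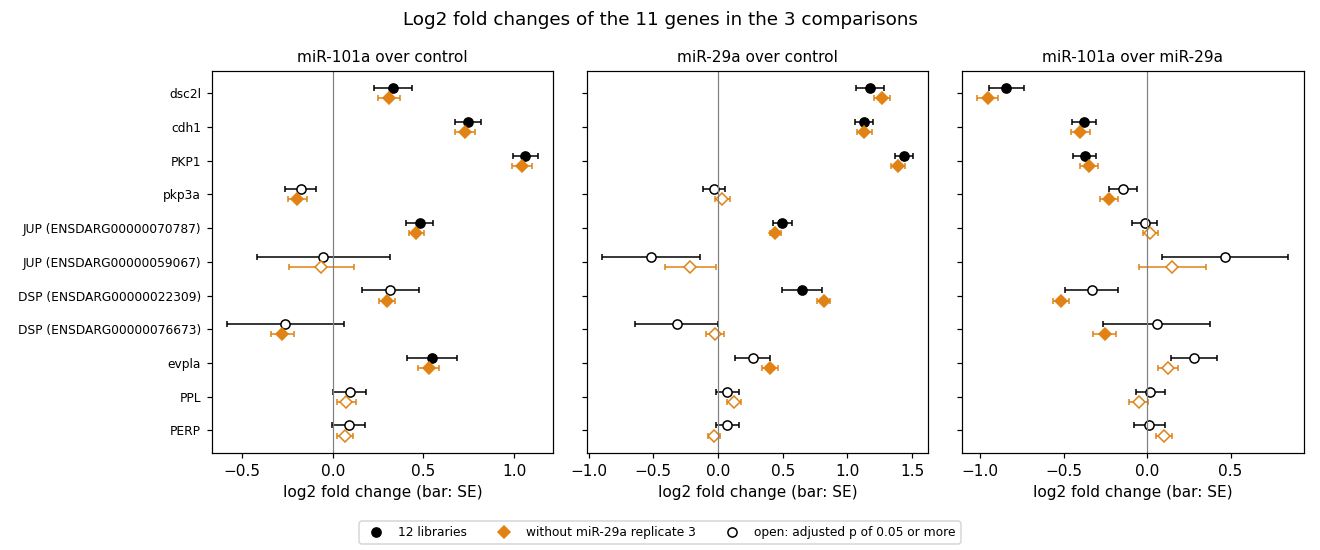
Log2 fold changes (horizontal axis, bars are SE) of the 11 genes in the comparisons miR-101a over control, miR-29a over control and miR-101a over miR-29a. Circles are the fit of 12 libraries, diamonds the fit without miR-29a replicate 3, and open symbols have an adjusted p of 0.05 or more. The SE bars are shorter without that library, most of all for the DSP and JUP (ENSDARG00000059067) rows, while PKP1, cdh1 and JUP (ENSDARG00000070787) hardly move. dsc2l moves from 1.17 to 1.27 with miR-29a and from -0.84 to -0.95 in the direct comparison.

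Counted over the comparison with miR-101a, 5 of the 11 genes rose (dsc2l, cdh1, PKP1, JUP (ENSDARG00000070787) and evpla) and 0 fell. Over all genes tested, 18.7% were called, 11.7% higher and 6.97% lower. The median log2 fold change was 0.32 over the 11 genes and 0.02 over all genes. Because the 11 genes were chosen with earlier results of these data known, such counts and medians beside all genes are descriptive only. Libraries of the 2 groups did not overlap in 8 of the 11 genes, 7 higher and 1 lower, where 43.8% of all genes tested had no overlap (23.3% higher and 20.5% lower). With miR-29a replicate 3 left out of the shared estimate of spread, 6 rose and 2 fell. The addition to the rises was DSP (ENSDARG00000022309), and the falls were pkp3a and DSP (ENSDARG00000076673). The share called over all genes was then 47.8%, 23.7% higher and 24.2% lower. Without control replicate 3, dsc2l and evpla were no longer called and 3 genes remained, with 13.6% of all genes called. In a fit of only the miR-101a and control libraries 8 were called, with 49.1% of all genes.

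With miR-29a, 5 of the 11 genes rose (dsc2l, cdh1, PKP1, JUP (ENSDARG00000070787) and DSP (ENSDARG00000022309)) and 0 fell, against 29.0% of all genes called, 17.1% higher and 11.9% lower. The median was 0.27 over the 11 genes and 0.03 over all genes. For the 11 genes it was 0.40 without miR-29a replicate 3 and 0.17 without miR-29a replicate 4. No overlap with control was seen in 4 of the 11 genes, all higher, where 33.5% of all genes had none (18.4% higher, 15.1% lower). Without replicate 3, 6 rose, evpla being the addition, and 0 fell, with 52.6% of all genes called (25.8% higher, 26.8% lower). The groups were then separated in 6 of the 11 genes, all higher, where 56.1% of all genes were (27.9% higher, 28.2% lower). The comparisons with control share the same 4 control libraries, so like signs in both are not independent of each other.

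The direct comparison asked where the microRNA groups differed. dsc2l, cdh1 and PKP1 were lower with miR-101a than with miR-29a, and none of the 11 was called higher, against 17.9% of all genes called (9.23% higher, 8.64% lower). dsc2l differed by -0.84 ± 0.11 on the log2 scale (adjusted p = 3.36e-04), from means of 55.0 ± 0.5 CPM with miR-101a and 98.8 ± 16.3 CPM with miR-29a (SD, n = 4 each). Leaving out miR-29a replicate 3 gave -0.95 ± 0.06 for dsc2l. cdh1 was at -0.38 ± 0.07 (adjusted p = 0.00355), a call that limma on RPKM did not make (0.107 to 0.111), and PKP1 at -0.37 ± 0.07 (adjusted p = 0.00307). The groups did not overlap in these 3 genes, where 23.6% of all genes had no overlap (12.0% higher, 11.6% lower). With miR-29a replicate 3 left out, 6 genes were lower with miR-101a, the others being both DSP copies (-0.52 ± 0.05 for ENSDARG00000022309 and -0.26 ± 0.07 for ENSDARG00000076673) and pkp3a (-0.23 ± 0.05), with 43.4% of all genes called (22.1% higher, 21.3% lower). The groups were then separated in 6 of the 11 genes, 1 higher and 5 lower, where 45.1% of all genes were (24.1% higher, 21.0% lower). JUP (ENSDARG00000070787) was at -0.02 ± 0.07 (adjusted p = 0.919).

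The genes did not rise in step, and ratios of read counts within a library express this without any scaling between libraries. The pairs were picked after the values above were seen, so the ratios restate those values and add no separate support. PKP1 had 0.509 ± 0.035 reads per read of pkp3a in miR-101a embryos, 0.604 ± 0.103 in miR-29a embryos and 0.216 ± 0.019 in control embryos (SD, n = 4 each). The microRNA libraries ran from 0.472 to 0.758 and the control libraries from 0.202 to 0.244. Reads of this pair thus shifted towards PKP1 in every treated library. The 0.758 was in miR-29a replicate 3, which deviated with gene length as described below, and PKP1 is shorter than pkp3a (2833 and 4202 bases). cdh1 had 0.427 ± 0.010 reads per read of PPL with miR-101a, 0.566 ± 0.042 with miR-29a and 0.271 ± 0.012 in control, and the 3 groups did not overlap. For dsc2l per read of PPL the ratios were 0.168 ± 0.010 with miR-101a, 0.304 ± 0.027 with miR-29a and 0.143 ± 0.008 in control. Here the miR-29a group stood clear, while the lowest miR-101a and the highest control library were both at 0.154. For evpla per read of PPL, not drawn, the ratios ran from 0.457 to 0.497 with miR-101a and from 0.326 to 0.356 in control. With miR-29a they ran from 0.307 to 0.427 and overlapped control, the lowest being miR-29a replicate 3.

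Between the desmoplakin copies, ENSDARG00000022309 had 1.88 ± 0.13 reads per read of ENSDARG00000076673 with miR-101a, 2.93 ± 1.36 with miR-29a and 1.26 ± 0.06 in control. The copies are of similar length, 8356 and 8903 bases. The lowest treated library had a ratio of 1.75 and the highest control library 1.30, so the balance moved towards ENSDARG00000022309 in all 8 treated libraries. miR-29a replicate 3 was the extreme at 4.97, against 2.13 to 2.32 in the other libraries of its group. These ratios were chosen after the values were seen and carry no test.

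**Figure D3:**
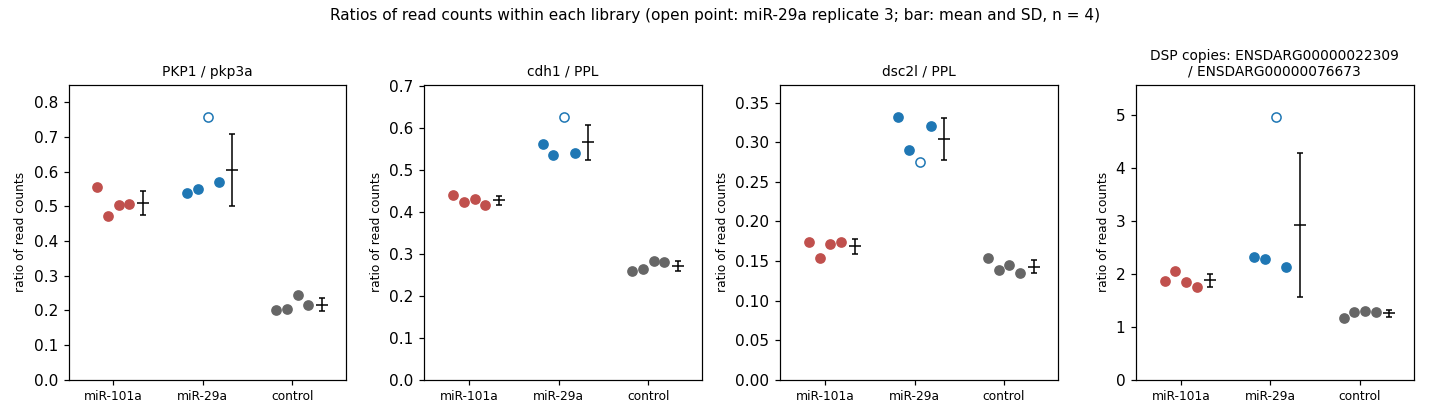
Ratios of read counts within each library for PKP1 over pkp3a, cdh1 over PPL, dsc2l over PPL and the DSP copies, on vertical axes that start at 0, for miR-101a, miR-29a and control. Points are libraries, the open point is miR-29a replicate 3, and bars give the mean and SD of 4 libraries. In the PKP1, cdh1 and DSP panels every treated library lies above every control library.

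miR-29a replicate 3 departed from its group in a way that went with gene length. Over all genes tested, its median log2 ratio to the mean of the other 3 miR-29a libraries was 0.67 among the shortest 10% of genes (median length 786 bases) and -0.61 among the longest 10% (median length 6876 bases). Among the genes described here, PERP (3265 bases) stood at 0.38, JUP (ENSDARG00000070787, 3353 bases) at 0.19 and PKP1 (2833 bases) at 0.16. The longer genes were below 0. cdh1 (4613 bases) was at -0.03, PPL (5905 bases) at -0.23, pkp3a (4202 bases) at -0.30 and dsc2l (4846 bases) at -0.42. evpla (7651 bases) was at -0.66 and DSP (ENSDARG00000022309, 8356 bases) at -0.84. Of these, DSP (ENSDARG00000076673, 8903 bases) at -1.99 lay much further down than the median of the longest genes. JUP (ENSDARG00000059067, 2504 bases) went against its length at -2.42, on 8 counts. When each library was corrected for a smooth trend with gene length, 6 of the 11 genes rose and 0 fell in either comparison with control, DSP (ENSDARG00000022309) joining the 5 of the comparison with miR-101a and evpla the 5 of the comparison with miR-29a. Over all genes that fit called 17.0% with miR-101a and 27.1% with miR-29a.

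**Figure D4:**
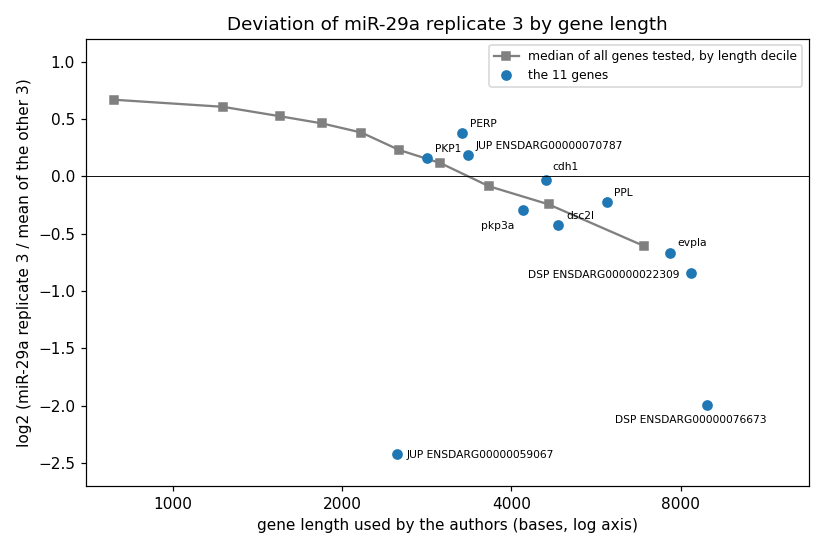
The log2 ratio of miR-29a replicate 3 to the mean of the other 3 miR-29a libraries (vertical axis) against gene length in bases (horizontal log axis). Circles are the 11 genes and squares are medians of all genes tested in 10 length classes. The squares fall from 0.67 to -0.61, and the longest gene, DSP (ENSDARG00000076673), and the scarce JUP (ENSDARG00000059067) lie far below them.

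Lists of other junction and skin genes put these values in context. They are described by counts and medians, and the lists were not tested as sets. Over all genes tested, 11.7% were called higher and 6.97% lower with miR-101a, and 17.1% and 11.9% with miR-29a. Without miR-29a replicate 3 these shares were 23.7% and 24.2% with miR-101a, and 25.8% and 26.8% with miR-29a. The counts of every list have to be read beside them. Each gene named from the lists was called in the comparison for which its value is given, and SEs follow the ± signs. Genes of tight junctions, which seal the space between epithelial cells, rose in 10 of 22 cases with miR-101a and fell in 0 (median log2 fold change 0.39). With miR-29a 14 rose and 0 fell (median 0.79). The occludin gene oclnb was at 0.81 ± 0.08 with miR-101a and 1.03 ± 0.08 with miR-29a, and the periderm claudin cldne at 1.29 ± 0.08 with miR-29a. With miR-29a replicate 3 left out, 15 rose and 2 fell with miR-101a, and 15 rose and 3 fell with miR-29a. Of 22 epithelial regulators and surface proteins, 12 rose and 0 fell with miR-101a (median 0.46) and 15 rose and 1 fell with miR-29a (median 0.62). The membrane protease gene st14a, for matriptase, was at 0.59 ± 0.06 with miR-101a and 0.65 ± 0.06 with miR-29a. spint1b, an inhibitor of that protease, was at 0.67 ± 0.06 with miR-101a and 0.73 ± 0.06 with miR-29a. The single fall was in TFAP2C (-0.30 ± 0.08 with miR-29a), and it was not called with the length correction (-0.16 ± 0.09, adjusted p = 0.25), in limma or in a fit of the 8 libraries compared. In the fit without miR-29a replicate 3, 17 rose and 0 fell with miR-101a, and 18 rose and 1 fell with miR-29a.

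Other lists were mixed. In the adherens junction list 1 of 17 rose and 3 fell with miR-101a (median 0.08), and 1 rose and 5 fell with miR-29a (median -0.05, or 0.03 without replicate 3). Its riser was CTNND1, p120-catenin, which binds cadherin tails (0.22 ± 0.07 with either microRNA). That call was lost in 16 of 22 alternatives with miR-101a, RLE scaling and the replicate block among them, and in 10 of 22 with miR-29a. In the fit without miR-29a replicate 3 the counts were 5 higher and 4 lower with miR-101a, and 4 higher and 6 lower with miR-29a. The endothelial cadherin gene cdh5 was at -0.28 ± 0.08 with miR-101a, a call lost in 12 of 22 alternatives, the replicate block and limma among them. With miR-29a cdh5 was at -0.32 ± 0.08, a call lost in 4 of 22. The length correction called neither (-0.27 with miR-101a and -0.08 with miR-29a). With that correction the list had 1 rise and 1 fall with miR-101a, and 2 rises and 2 falls with miR-29a. Of 21 keratins tested, 2 rose and 3 fell with miR-101a (median 0.14), and 2 rose and 6 fell with miR-29a (median -0.34, or -0.58 without replicate 3). krt18a.1, a keratin of simple epithelia, was at 0.69 ± 0.14 with miR-101a and 0.96 ± 0.14 with miR-29a, and krt99 was at -2.02 ± 0.38 with miR-29a. Leaving out miR-29a replicate 3 put the values with miR-29a at 0.76 for krt18a.1 and -2.64 for krt99. Without miR-29a replicate 3 the falls among keratins numbered 15 with miR-29a, beside 3 rises, and with miR-101a there were 8 rises and 4 falls. With the length correction there were 1 rise and 2 falls with miR-101a, and 3 rises and 8 falls with miR-29a. Keratin genes have close copies that can share reads, so single values are uncertain.

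Hemidesmosome and basal anchoring genes, which fix basal cells to the basement membrane, had 4 of 21 higher and 2 lower with miR-101a (median 0.10) and 5 higher and 4 lower with miR-29a (median -0.09, or 0.09 without replicate 3 and 0.03 with the length correction). Both zebrafish copies of collagen XVII are in the list, and they moved apart with miR-101a, col17a1b at 0.76 ± 0.09 and col17a1a at -0.79 ± 0.14. The anchoring fibril collagen gene col7a1 fell with both, at -0.77 ± 0.14 with miR-101a and -1.58 ± 0.15 with miR-29a. Also in this list, FERMT1, which encodes kindlin-1, was at 0.37 ± 0.07 with miR-101a. The fit without miR-29a replicate 3 gave 8 rises and 3 falls with miR-101a, and 8 rises and 6 falls with miR-29a. Of 8 further desmosome and cornified envelope genes, 2 rose and 1 fell with miR-101a (median 0.26), and 3 rose and 0 fell with miR-29a (median 0.06). Transglutaminases crosslink proteins, in mammalian skin those of the cornified envelope. The transglutaminase gene tgm2l rose with both, by 2.26 ± 0.17 with miR-101a and 2.30 ± 0.17 with miR-29a, while TGM1 (ENSDARG00000101407) fell with miR-101a (-1.35 ± 0.32). For these 8 genes the fit without that library gave 3 rises and 1 fall with miR-101a, and 3 rises and 2 falls with miR-29a. Transcription factors of epithelial-mesenchymal transition, several of which repress E-cadherin in mammals, had 2 of 12 higher and 0 lower with miR-101a (median 0.13), and 2 higher and 1 lower with miR-29a (median -0.08). snai3 was at 3.39 ± 0.32 with miR-101a and 2.31 ± 0.33 with miR-29a. Under the alternatives its values ran from 2.12 to 3.52 with miR-101a and from 1.25 to 2.47 with miR-29a. zeb2a was at -0.67 ± 0.22 with miR-29a, a call lost in 12 of 22 alternatives. In the fit without that library, 5 rose and 2 fell with miR-101a, and 2 rose and 4 fell with miR-29a.

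**Figure D5:**
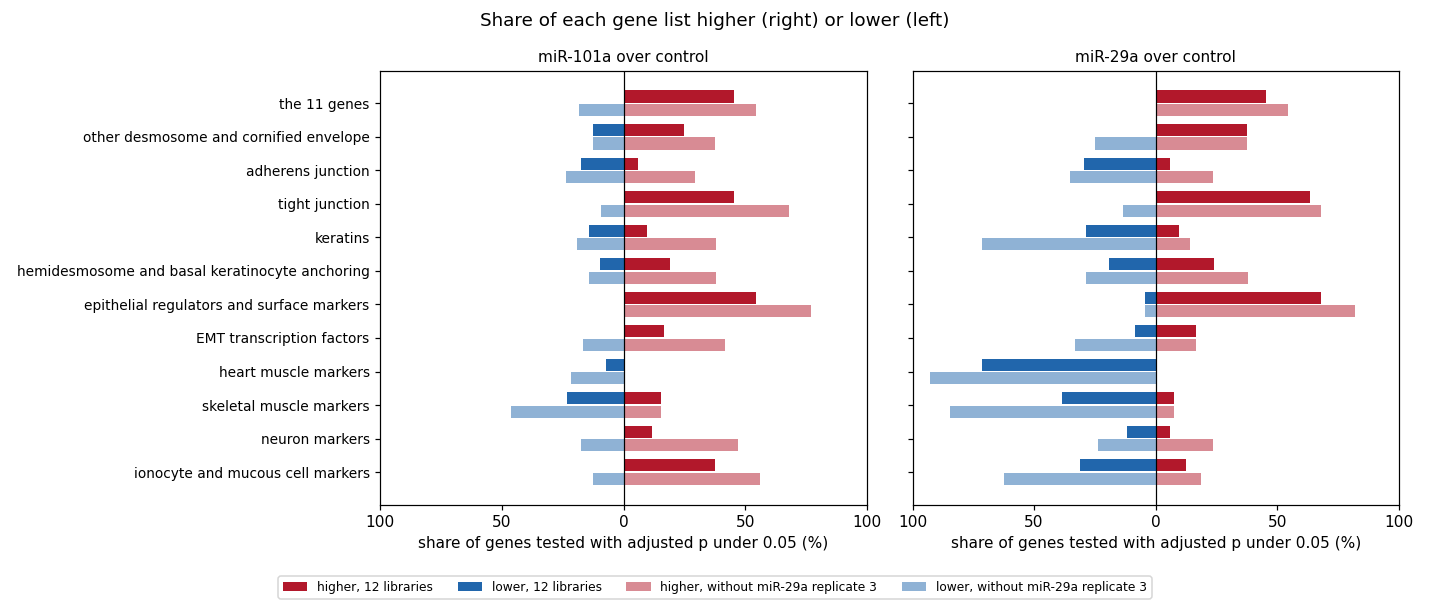
For each gene list, the share of genes tested that were called higher (bars to the right, in percent) or lower (bars to the left), for miR-101a over control and miR-29a over control. Dark bars are the fit of 12 libraries and pale bars the fit without miR-29a replicate 3. Over all genes, not drawn, the dark fit called 18.7% with miR-101a and 29.0% with miR-29a, and the pale fit 47.8% and 52.6%. Tight junction genes and epithelial regulators extend mostly to the right in both panels, while keratins and heart and skeletal muscle markers extend mostly to the left with miR-29a.

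Markers of other tissues were counted in the same way. Over all genes, 18.7% were called with miR-101a and 29.0% with miR-29a, and 47.8% and 52.6% without miR-29a replicate 3. In the fit of 12 libraries, heart markers with miR-101a and neuron markers with either microRNA were called less often than all genes. Desmosomal proteins also join heart muscle cells, and of 14 heart markers 0 rose and 1 fell with miR-101a, while 0 rose and 10 fell with miR-29a. Without replicate 3 of the miR-29a group the falls were 3 with miR-101a and 13 with miR-29a. Their summed level was 297 to 376 CPM with miR-101a, 106 to 181 CPM with miR-29a outside replicate 3 and 310.1 CPM within it, and 384 to 435 CPM in control. Of 13 skeletal muscle markers, 2 rose and 3 fell with miR-101a, and 1 rose and 5 fell with miR-29a. Leaving out replicate 3 gave 2 rises and 6 falls with miR-101a, and 1 rise and 11 falls with miR-29a. They summed to 34443 to 45372 CPM with miR-101a, to 20739 to 25793 CPM with miR-29a outside replicate 3 and 52205 CPM within it, and to 44230 to 51704 CPM in control. Neuron markers had 2 of 17 higher and 0 lower with miR-101a, and 1 higher and 2 lower with miR-29a. In the fit without replicate 3 they had 8 higher and 3 lower with miR-101a, and 4 higher and 4 lower with miR-29a. Ionocyte and mucous cell markers, which are other cells of the skin, had 6 of 16 higher and 0 lower with miR-101a, and 2 higher and 5 lower with miR-29a. For these the fit without replicate 3 gave 9 higher and 2 lower with miR-101a, and 3 higher and 10 lower with miR-29a, and with the length correction the rises with miR-101a were 3 and the falls 0. The 15 epidermis markers summed to 19766 to 23535 CPM with miR-101a, to 14844 to 15391 CPM with miR-29a outside replicate 3 and 27147 CPM within it, and to 20645 to 21379 CPM in control. The 11 genes together summed to 1517 to 1584 CPM with miR-101a, to 1647 to 1780 CPM with miR-29a outside replicate 3 and 1468 CPM within it, and to 1224 to 1305 CPM in control. In miR-29a embryos outside replicate 3 the summed 11 genes were above control and the summed epidermis markers below it. That marker sum follows krt4 most, which averaged 14194 of 21093 CPM in control. In the same libraries keratins summed to 16323 to 17101 CPM, against 22421 to 23162 CPM in control and 30843 CPM in miR-29a replicate 3. Epithelial regulators and surface proteins summed to 2387 to 2596 CPM, against 1457 to 1524 CPM in control and 3708 CPM in miR-29a replicate 3. Tight junction genes summed to 1487 to 1606 CPM, against 1052 to 1081 CPM in control and 2140 CPM in miR-29a replicate 3. The further desmosome and cornified envelope genes also lay above control, while the adherens junction and hemidesmosome sums overlapped it. In replicate 3 the adherens junction sum was 1471 CPM and the hemidesmosome sum 976 CPM, both below control. Single markers differed. In control tp63 averaged 57.4 CPM, and it was never below 55.9 CPM in any library. By contrast col17a1a averaged 136 CPM in control and went down to 56.4 CPM. None of the markers in these lists that passed the filter was at 0 in any library. What part these shifts had in the results for the 11 genes was not tested.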

How the data were processed

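The authors deposited whole-number counts of reads per gene for 12 libraries and a table of RPKM values. Tools listed in the submitters' processing notes are featureCounts 1.4.6-p4, STAR 2.4.1d and bcl2fastq 1.8.4, without settings, and the build is GRCz10. The library kit named in the labels, TruSeq RNA v2, does not mark strand, so reads of overlapping genes on opposite strands cannot be told apart. The deposited RPKM values had been divided by library totals recycled down the genes: with recycled totals the implied gene length varied by under 1% in 7554 of 7554 genes whose counts all reached 300, and with own totals in 0. They served only to obtain gene lengths. RPKM was then recomputed from the counts with the totals of the libraries themselves.

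The main test was run on the counts with edgeR 4.0.16 under R 4.3.3 (filterByExpr with a minimum count of 10, TMM, robust quasi-likelihood F-test on all 12 libraries, 20872 genes), after the steps were tested on simulated data. The smooth length correction used a spline with 5 degrees of freedom on each library's deviation from the mean of all libraries, and so also removes any group difference that goes with length. Alternatives used RLE scaling, other filters, DESeq2 1.42.0, limma 3.58.1 on log2(RPKM + 0.5) or log2(RPKM + 0.1), a replicate block and leaving out each library. Whether same-numbered libraries pair was not settled. Correlations of their deviations ran from -0.21 to 0.41, and those of other pairs from -0.47 to 0.39. Between miR-29a and control they were 0.08 to 0.35, against -0.33 to 0.17 for other pairs. There, and between the microRNA groups, 5 of 8 libraries correlated best with their own number. Between miR-101a and control 2 of 8 did. Symbols came from a table that named 26269 of 32105 identifiers. The genes and lists were chosen with earlier results of these data known. All 11 genes are named, and the genes named from the lists are among the up to 2 called per direction with the smallest p. Some of these are not reported here.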

Additional observations from a re-analysis of the deposited data

Results flagged for a closer look

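Each of the 11 genes was checked in each of the 3 groups for a library whose gap to its nearest neighbour was large beside the range of the group, 33 checks in all. Chance alone flags about 1 group in 20, and 2 stood out. DSP (ENSDARG00000022309) was at 138 CPM in miR-29a replicate 3, against 235 to 254 CPM in the other miR-29a libraries. PPL was at 353 CPM in miR-101a replicate 2, against 316 to 322 CPM in the other miR-101a libraries.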

How the results depend on the processing

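The number of the 11 genes called with miR-101a against control was 5. It was 8 in a fit of only the 8 libraries compared, where 49.1% of all genes were called against 18.7%. In limma on log2(RPKM + 0.5) and on log2(RPKM + 0.1) it was 3, where 4434 and 4349 of 20872 genes were called, against 3905. Leaving out 1 library gave 3 to 8, the lowest without control replicate 3 (13.6% of all genes called) and the highest without miR-29a replicate 3 (47.8%). Against control with miR-29a it was 5, with 29.0% of all genes called, and 5 to 6 with 1 library left out. The 6 came without miR-29a replicate 3, where 52.6% of all genes were called. With miR-29a it was 4 in a fit of the 8 libraries compared, where 4322 of 20412 genes were called. It was also 4 in limma, where 6156 and 6096 of 20872 genes were called, against 6045. In the direct comparison it was 3, with 17.9% of all genes called. It was 3 to 6 there with 1 library left out, the highest without miR-29a replicate 3 (43.4% of all genes called). In limma the direct comparison had 2, where 4214 and 4072 of 20872 genes were called, against 3730. The remaining alternatives stayed within 1.5 times of the count. With the replicate number as a block the counts were 5, 5 and 3, the same as without it. Over all genes the block gave 3668, 5851 and 3495 calls, against 3905, 6045 and 3730 without it. For the signs of single genes, those that turned were near 0 or uncalled with 12 libraries. pkp3a with miR-29a was at 0.072 with the length offset, at 0.068 with the replicate block as well, and at -0.084 to 0.033 with 1 library left out. PERP with miR-29a was at -0.034 to 0.12, and JUP (ENSDARG00000059067) with miR-101a at -0.21 to 0.11, with 1 library left out. In the direct comparison, the length offset gave -0.0229 for DSP (ENSDARG00000076673), -0.12 for PERP and -0.15 for PPL, and with the replicate block as well -0.093 for PERP and -0.15 for PPL. Leaving out 1 library there gave -0.26 to 0.22 for that DSP copy, -0.031 to 0.10 for PERP, -0.049 to 0.071 for PPL and -0.039 to 0.019 for JUP (ENSDARG00000070787), which limma put at 0.045 with a pseudocount of 0.5 and 0.045 with one of 0.1. The cause was not tested. Over all values of single genes under alternatives, 668 kept sign and call and 20 turned sign. With the sign kept, 15 gained a call and 23 lost one. Among those that turned sign, DSP (ENSDARG00000076673) also gained a call in the direct comparison without miR-29a replicate 3 (-0.26, adjusted p = 0.0053). Depth limits JUP (ENSDARG00000059067) most, with 8 to 102 counts per library.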
